A study of Mus musculus with 1298 samples.

Results

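The chemokine ligands Cxcl12, Cxcl14, Ccl2, Ccl7, Ccl11 and Cxcl1 and the chemokine receptors Cxcr4 and Ackr3 were followed across cells of the mouse Pax7 lineage. They were chosen by name, as 8 of the 26724 genes listed in any of the deposited tables, and all 8 were listed in the 10x, the Smart-seq2 and the bulk table. All embryos were Pax7CreER:R26R-stop-EYFP and had received 75 µg/g tamoxifen at E9.5, so that cells descending from Pax7-expressing progenitors were sorted by YFP, whether or not they still expressed Pax7. The label also marks neural cells that had expressed Pax7. Single cells came from E12.5, E14.5 and E16.5, with 1 10x library a day (2921 of 2934 cells kept) and Smart-seq2 plates of the same days (931 of 982 cells kept).

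The 18 bulk libraries fell into 4 groups: 6 of E14.5 cells cultured in adipogenic differentiation medium (ADM), 6 of E14.5 cells cultured in DMEM, 4 of freshly sorted E16.5 Pdgfra+ cells and 2 of freshly sorted E16.5 Cd36+ cells. Per the study's methods, embryos of a day were pooled before sorting, so no p-value here measures the spread between embryos. For single cells, tested as counts summed by class, the spread is that between platforms and days as the fit shares it over all genes. With few sums a class, the SE and p-value of a gene can miss its own difference between platforms. The Pdgfra+ and the cultured libraries were each of Thy1+ or Thy1- cells, but the sign was lost from the bulk table's header, and the libraries are separated here only by whether their column name carries a repeat mark ("with the mark" or "without the mark"). The mark must not be read as a Thy1 sign, nor as 1 variable across groups: Thy1 itself was lower with the mark in sorted Pdgfra+ libraries (5.87 and 4.77 against 109.3 and 86.2 CPM) and higher with it in DMEM (54.7 to 64.8 against 5.97 to 9.03 CPM) and in ADM (25.6 to 32.3 against 0.992 to 2.38 CPM). No sign was assigned from these values. The study's methods give the cultured libraries as triplicate wells and the sorted E16.5 libraries as technical duplicates, so bulk libraries are not independent biological replicates. Bulk p-values measure the spread between such wells or duplicates. The ADM, DMEM and sorted Pdgfra+ groups each hold both signs, so that spread also includes the one between Thy1+ and Thy1- cells. The sorted libraries are all E16.5 by the labels, whereas the study's text places its sorted Pdgfra+/Thy1- cells at E14.5, and this could not be settled here.

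Chemokines are small secreted proteins that attract cells along gradients through receptors coupled to G proteins. Cxcl12 is made by stromal cells and signals through Cxcr4, a receptor used by migrating muscle precursors and neural cells, while Ackr3 binds Cxcl12 without classical G protein signalling and removes it from the surroundings. Cxcl14 is a homeostatic chemokine of skin and other connective tissues. Ccl2 and Ccl7 attract monocytes through Ccr2, Ccl11 attracts eosinophils through Ccr3, and Cxcl1 attracts neutrophils through Cxcr2; transcription of Ccl2 and Cxcl1 is induced quickly by inflammatory signals through NF-kB, also when tissue is handled.

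The genes lie apart in the genome except for 3 of them (GENCODE vM21 gene models, GRCm38). Ccl2 (chr11:82035571-82037453), Ccl7 (chr11:82045712-82047525) and Ccl11 (chr11:82057823-82062955) are neighbours on the plus strand of chromosome 11. Cxcl1 is at chr5:90891241-90893115, Cxcl12 at chr6:117168535-117181367 and Ackr3 at chr1:90203980-90216751, all on the plus strand. Cxcl14 (chr13:56288643-56296551) and Cxcr4 (chr1:128588199-128592293) are on the minus strand.

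The promoters of Cxcl1 and Cxcl12 are shown because the levels of these ligands lay far apart in cells cultured in DMEM (below 1 CPM and above 200 CPM). Each is the 250 bases before the RefSeq start site (GRCm38.p6, plus strand, 5′ to 3′), and capitals mark matches to the NF-kB motif. Cxcl1 is chr5:90890995-90891244 and Cxcl12 is chr6:117168285-117168534.
Cxcl1: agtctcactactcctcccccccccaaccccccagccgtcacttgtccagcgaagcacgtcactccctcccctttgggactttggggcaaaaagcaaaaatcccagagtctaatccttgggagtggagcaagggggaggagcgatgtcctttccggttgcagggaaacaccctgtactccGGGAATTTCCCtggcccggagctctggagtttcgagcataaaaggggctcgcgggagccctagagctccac
Cxcl12: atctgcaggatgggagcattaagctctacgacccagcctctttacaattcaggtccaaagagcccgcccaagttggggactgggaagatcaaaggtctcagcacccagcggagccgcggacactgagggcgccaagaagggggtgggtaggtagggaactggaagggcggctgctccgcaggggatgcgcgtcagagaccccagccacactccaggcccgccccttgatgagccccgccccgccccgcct
Both strands were searched for the NF-kB and AP-1 (TGACTCA or TGAGTCA) motifs and the gene's strand for the TATA box (TATAAA). In Cxcl1 the capitals hold 2 overlapping NF-kB matches, 1 on each strand, whose first base lies 71 bases before the start, and 7.25% of 32851 promoters of this length hold such a match. Of the 5 genes in the promoter table (Cxcl12, Cxcl14, Cxcr4, Ackr3 and Cxcl1), no other held an NF-kB match, none held AP-1 (4.46% of promoters), and Cxcr4 and Ackr3 held a TATA box (7.59%). A match is a run of letters and not a bound site.

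Cells were grouped by clustering in which the 8 genes and related lists had no part, and clusters were named from marker genes of the study's cell types: early and late progenitors (EP-like, LP-like), dermal fibroblasts (DF-like), pericytes (PE-like), brown adipocytes (BA-like), early and late muscle (EM-like, LM-like), neurons (N-like) and neural progenitors (NP-like). Of the 3852 cells kept 10.6% were EP-like, 20.6% LP-like, 14.02% DF-like, 1.48% PE-like, 4.52% BA-like, 18.1% EM-like, 6.15% LM-like, 16.6% N-like and 7.40% NP-like, and 22 cells stayed unnamed. The EP-like name is the weakest: 6 of its markers were detected, but none was among the 10 leading genes of the cluster. Ccl11, although withheld from clustering, was among the 10 leading genes of the PE-like cluster. Median UMIs per 10x cell were 2185, 5930 and 1607.5 by day, and median expected counts per cell 393416, 769831 and 829589 in Smart-seq2, and bulk libraries held 3390851 to 35332908 counts. CPM below are a gene's counts scaled to one common total for each class or library, and 10x UMIs, counted at 1 end of each transcript, allow levels of different genes to be compared.

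**Figure D1:**
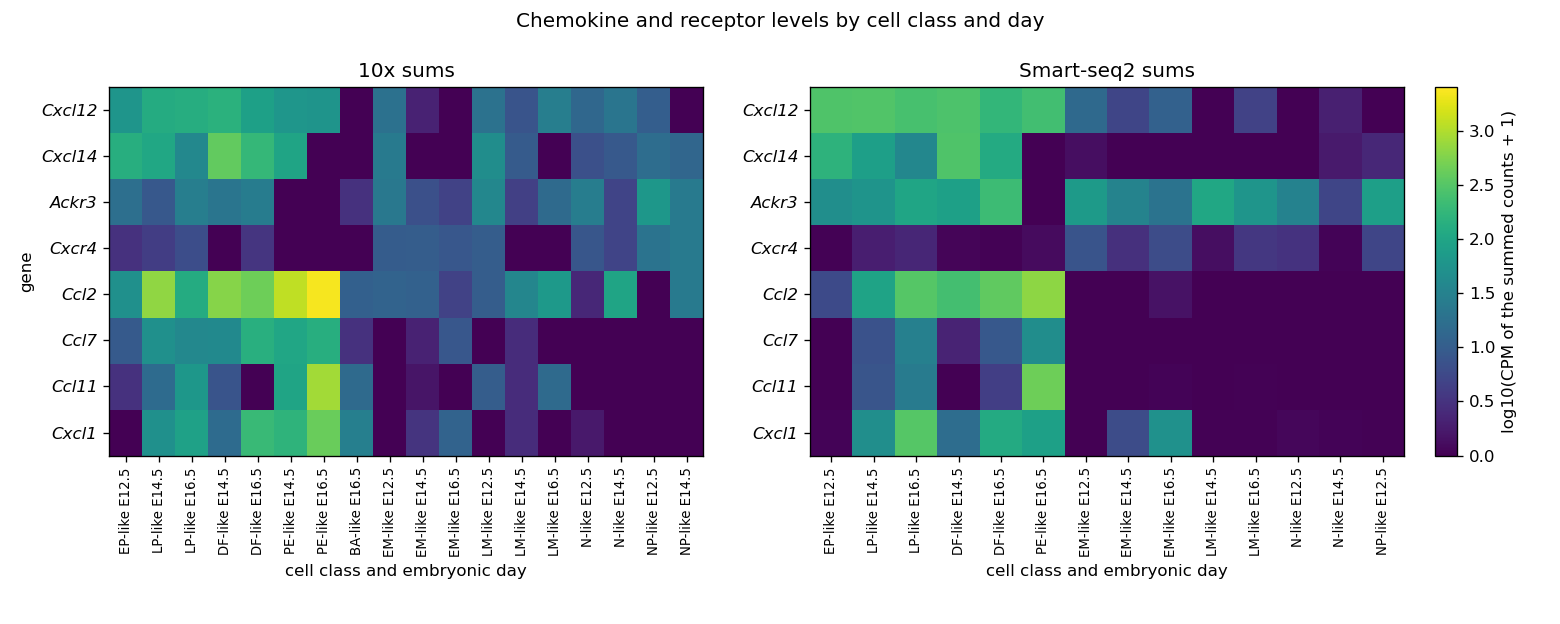
Level of the 8 genes (rows) in each cell class and day (columns), as log10(CPM + 1) of the summed counts, with 10x at the left and Smart-seq2 at the right. CPM here are scaled to the genes of both single-cell tables. The brightest cell is Ccl2 in PE-like 10x cells of E16.5 (2285 CPM), Cxcl14 is brightest in DF-like columns of E14.5, and Cxcr4 is dark to dim in every column.

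In these mesenchymal classes the ligands were present and differed from one another in where they peaked. In 10x, Cxcl12 stood at 55.6 CPM in EP-like cells of E12.5, at 119.2 and 123.85 CPM in LP-like cells of E14.5 and E16.5, and at 140.99 and 80.9 CPM in DF-like cells of the same days. Cxcl14 stood at 128.96 CPM in EP-like cells, while the LP-like values were 101.2 and 36.1 CPM and those of DF-like cells 374.25 and 175.2 CPM. Ccl2 was the most abundant of the 8 in LP-like cells of E14.5, with 655 CPM, and reached 1154 and 2202 CPM in PE-like cells. The order of classes thus differed by gene: DF-like cells led for Cxcl14 and PE-like cells for Ccl2, Ccl11 and Cxcl1.

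The remaining ligands were lower. Ccl7 stood at 47.6 and 36.1 CPM in LP-like cells, at 38.5 and 132.55 CPM in DF-like cells and at 101.1 and 128.45 CPM in PE-like cells of E14.5 and E16.5. Ccl11 stood at 13.7 and 59.3 CPM in LP-like, 6.41 and 0 CPM in DF-like and 92.7 and 807 CPM in PE-like cells. Its 0 in DF-like cells of E16.5 allows a share of cells with a UMI of up to 0.977%. Cxcl1 stood at 47.6 and 82.6 CPM in LP-like, 14.1 and 188.7 CPM in DF-like and 160 and 403.7 CPM in PE-like cells, and had no UMI in EP-like cells of E12.5 (limit 1.07%). Intervals and limits on UMIs cover counting error only.

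The receptors were low in 10x. Cxcr4 lay between 0 and 5.16 CPM in the LP-like, DF-like, PE-like, BA-like and EP-like classes, between 7.26 and 8.94 CPM in EM-like cells and at 18.1 and 22.8 CPM in NP-like cells of E12.5 and E14.5. Ackr3 lay at 15.9 CPM among EP-like cells, 7.29 and 25.8 CPM among LP-like cells and 19.2 and 24.7 CPM in DF-like cells, reached 60.4 CPM in NP-like cells of E12.5 and was 0 in all 43 PE-like 10x cells. Neither receptor therefore had its highest 10x level in a mesenchymal class. For Ackr3 this did not hold in Smart-seq2. Among the Smart-seq2 sums, scaled to the genes of both single-cell tables, Ackr3 was highest in DF-like cells of E16.5 (214.2 CPM). Its level in NP-like cells of E12.5 was 81.9 CPM. In the same sums Cxcr4 was highest in EM-like cells of E12.5 (6.68 CPM).

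Shares of cells with a UMI move with depth. Ccl2 was detected in 41.8% of LP-like cells of E14.5 (exact interval 36.9 to 46.9, median 5426.5 UMIs) and in 7.83% of EM-like cells of the same library (4.63 to 12.2, median 8166 UMIs), which were deeper. N-like cells of that library, taken as background, had it in 6 of 81 cells (7.41%, median 2993 UMIs), near the EM-like share. Their level was not alike. On the genes of both single-cell tables, Ccl2 stood at 94.4 CPM in N-like and 10.2 CPM in EM-like cells. In N-like cluster 12 of that library it stood at 168.6 CPM. In Smart-seq2 Ccl2 had no count in any of 120 N-like cells of E14.5, and stood at 0.0183 CPM in EM-like cells. Thinned to 1000 UMIs a cell, Ccl2 was detected in 22.2% of LP-like, 1.38% of EM-like and 2.5% of N-like cells of E14.5.

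The first comparison set mesenchymal against muscle progenitors of E12.5. Cxcl12 and Cxcl14 were higher in EP-like than EM-like cells on both platforms. Cxcl12 stood at 55.6 against 17.1 CPM in 10x and at 275.99 against 13.2 CPM in Smart-seq2 (log2 fold change 3.58 ± 0.41 (SE), adjusted p = 8.85e-16, from edgeR's quasi-likelihood fit and Benjamini and Hochberg's correction over all genes, as for every adjusted p below). Cxcl14 stood at 128.96 against 23.5 CPM in 10x and 150.8 against 0.319 CPM in Smart-seq2 (6.21 ± 0.52, 9.91e-30). The size of both differences thus depended on the platform: the 10x ratios were 3.25 (1.44 to 8.24) and 5.48 (2.87 to 11.5). The SE and adjusted p of the fit do not measure that dependence.

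Ccl2 was also higher in EP-like cells (47.6 against 10.7 CPM in 10x and 4.65 against 0 CPM in Smart-seq2, log2 fold change 4.13 ± 1.23, adjusted p = 0.0125). Cxcr4 was lower, at 1.98 against 8.55 CPM in 10x, which is 1 UMI against 4 (ratio 0.232, 0.00471 to 2.34), and at 0.0311 against 6.46 CPM in Smart-seq2 (log2 fold change -6.32 ± 1.92, adjusted p = 0.0158). Ackr3 did not pass the test (-0.72 ± 0.47, 0.433), with 15.9 against 21.4 CPM in 10x and 44.98 against 67.2 CPM in Smart-seq2. Of the 5 genes tested 3 were thus higher and 1 lower, where 4.2% of all 12538 genes were called higher and 4.62% lower. The called genes were higher in 47.6% of cases, or 66.6% when scaled by library totals, which moved the median of all genes by 0.19. This fit rests on 2 sums a class, and no library could be left out of it.

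At E14.5 and E16.5 the gap to muscle was wider, and it took in the Ccl ligands and Cxcl1. Cxcl12 stood at 119.2, 123.85, 293.2 and 251.3 CPM in LP-like cells of 10x E14.5, 10x E16.5, Smart-seq2 E14.5 and Smart-seq2 E16.5 and at 1.12, 0, 4.04 and 10.3 CPM in EM-like cells of the same pools, a pool being 1 platform on 1 day. All 4 LP-like values were above all 4 EM-like ones (log2 fold change 5.61 ± 0.34, adjusted p = 2.20e-06). Cxcl14 stood at 101.2, 36.1, 79.2 and 35.4 CPM in LP-like cells and at 0 in all 4 EM-like sums. Its fitted fold change is no bound; in 10x it was 250 UMIs against 0, at least 63.2-fold higher against a floor of 3 UMIs over both EM-like sums (adjusted p = 6.14e-06).

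Ccl2 in LP-like cells stood at 655, 116.1, 89.6 and 312.99 CPM in the same 4 pools, against 10.1, 3.63, 0.0183 and 0.438 CPM in EM-like cells (8.64 ± 0.76, 2.25e-05), a 10x ratio of 62.8 (40.1 to 104.7). Ccl7 stood at 47.6, 36.1, 6.06 and 28.8 CPM against 1.12, 7.26, 0 and 0 CPM (8.13 ± 1.17, 0.000486), and Ccl11 at 13.7, 59.3, 6.80 and 24.4 CPM against 0.559, 0, 0 and 0.0795 CPM (8.25 ± 0.83, 5.01e-05). The fitted fold changes of both lean on EM-like sums at or near 0: the 10x ratios were 23.7 (9.04 to 88.4) for Ccl7 and 41.7 (7.19 to 1678) for Ccl11, the latter on 1 EM-like UMI. Leaving out 1 pool moved them between 6.14 and 9.32 for Ccl7, without Smart-seq2 E16.5 and without 10x E16.5, and moved Ccl2 between 7.74 (without Smart-seq2 E16.5) and 9.96 (without 10x E14.5). Cxcl1 was the ligand with muscle levels closest to those of LP-like cells, at 47.6, 82.6, 45.2 and 310 CPM against 2.24, 10.9, 5.13 and 50.6 CPM (3.13 ± 0.24, 9.78e-06).

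The receptors differed less. Ackr3 stood at 7.29, 25.8, 55.4 and 95.1 CPM in LP-like cells against 5.59, 3.63, 30.9 and 18.5 CPM in EM-like cells, higher in 4 of 4 pools (1.49 ± 0.40, 0.0159), but the call was lost without 10x E16.5 (1.38, 0.0501) or Smart-seq2 E16.5 (0.79, 0.121). Cxcr4 was below its EM-like level in 4 of 4 pools, at 3.00, 5.16, 0.882 and 1.32 CPM against 8.94, 7.26, 1.95 and 5.13 CPM, and did not pass the test (-1.37 ± 0.68, 0.146). It passed without Smart-seq2 E14.5 (-1.67, 0.0403) and with DESeq2 (-1.41, 0.017). In Smart-seq2 Cxcr4 was detected in 38.9% and 50.8% of EM-like cells of E14.5 and E16.5.

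In all, 7 of the 8 genes were higher in LP-like than EM-like cells and none was lower, where 20.7% of 12920 genes were called higher and 15.9% lower. The median log2 fold change of the 8 was 6.87, or 5.79 with Cxcl14 at its bound, beside 0.12 over all genes. Of the 15 chemokine ligands tested, 8 were higher, among them Cxcl9 (8.54 ± 1.19) and Cxcl16 (8.38 ± 1.92) besides the 6 followed here, and of the 5 receptors Ackr3 and Ackr4 (5.59 ± 0.97). Of 22 immediate-early and dissociation stress genes, 17 were higher in LP-like cells and 1 (Hspb1) lower, and of 19 NF-kB and inflammatory genes 12 were higher and 1 lower. In 10x the summed level of the 22 stress genes was 8589 and 7281 CPM in LP-like against 2203 and 2732 CPM in EM-like cells of E14.5 and E16.5. The part of handling in the ligand levels was not tested.

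**Figure D2:**
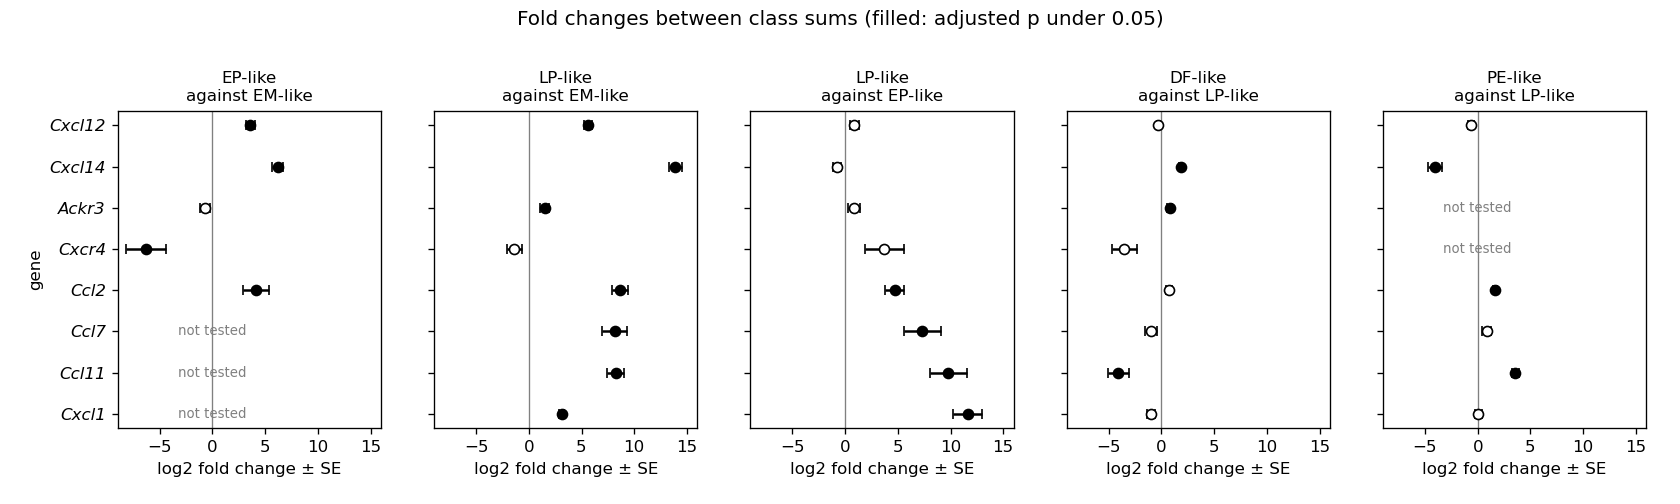
Fitted log2 fold changes (x axis) with standard errors for each gene (rows) in 5 comparisons of class sums; filled points passed an adjusted p of 0.05 in edgeR, and genes too low for the fit are marked as not tested. In LP-like against EM-like cells 7 filled points lie to the right of 0, and in DF-like against LP-like cells the 8 points lie on both sides.

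Between the early and the late progenitors 4 of the ligands passed the test, and Cxcl12, Cxcl14 and both receptors did not. Cxcl12, at 55.6 and 275.99 CPM in EP-like cells of 10x and Smart-seq2, did not pass the test (0.88 ± 0.39, 0.221), nor did Cxcl14 at 128.96 and 150.8 CPM (-0.76 ± 0.42, 0.330). Cxcl14 passed as lower in LP-like cells once the listed genes took part in clustering (-1.79, 0.0243). Ackr3 (0.86 ± 0.58, 0.451) and Cxcr4 (3.73 ± 1.85, 0.277) did not pass either, Cxcr4 with 1 UMI in EP-like cells and an adjusted p of 0.0172 with DESeq2.

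Ccl2, Cxcl1, Ccl7 and Ccl11 were higher in LP-like cells. Ccl2 stood at 47.6 and 4.65 CPM in EP-like cells (4.69 ± 0.93, 0.00802), and its 10x ratio was 12.3 (8.27 to 19.3). Cxcl1 had no UMI in EP-like cells and 0.0778 CPM in Smart-seq2, against 52.5 CPM in all LP-like 10x cells, at least 8.98-fold higher against a floor of 3 UMIs, with an exact lower limit of 7.21 (fitted 11.63 ± 1.39, adjusted p = 0.000402). Ccl7 rested on 4 EP-like UMIs (ratio 6.03, 2.30 to 22.5; fitted 7.33 ± 1.75, 0.0221) and Ccl11 on 1 (ratio 10.4, 1.78 to 416.7; fitted 9.80 ± 1.73, 0.00433), and both were at 0 in EP-like cells of Smart-seq2.

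These calls were 4 of 8, where 5.55% of 14129 genes were called higher and 1.1% lower. The called genes were higher in 83.5% of cases, or 61.9% when scaled by library totals, which moved the median of all genes by -0.42. The median log2 fold change of the 8 was 4.21 beside 0.12 over all genes. All 4 rested on the Smart-seq2 EP-like sum: without it no gene was called, with 682 genes at an unadjusted p under 0.05, and the adjusted p-values were 0.652 for Ccl2, 0.858 for Ccl7, 0.749 for Ccl11 and 0.446 for Cxcl1. Without the LP-like sum of 10x E14.5 Ccl2 (4.22, 0.0875) and Ccl7 (7.10, 0.119) were not called, and without that of 10x E16.5 Ccl7 (7.34, 0.0904) and Ccl11 (9.58, 0.0520) were not. Ccl7 was also not called with DESeq2 (4.77, 0.165). Of the stress genes 12 of 22 and of the NF-kB genes 9 of 21 were higher too. Day and class cannot be told apart here, since EP-like cells came from E12.5 and LP-like cells from the later days, and digestion from E14.5 on added dispase.

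Within LP-like cells, Ccl2 went opposite ways between days on the 2 platforms. In 10x it was 1528 UMIs (655 CPM) at E14.5 and 45 UMIs (116.1 CPM) at E16.5, a ratio of 0.177 (0.129 to 0.238). In Smart-seq2 it was 89.6 CPM at E14.5 and 312.99 CPM at E16.5, a ratio of 3.49. On plates with at least 5 LP-like cells, the E14.5 values were 9.85, 178.7 and 80.6 CPM and the E16.5 values 509.3, 257.7, 334.4 and 173.2 CPM, which overlap.

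Most LP-like 10x cells of the 2 days were in different clusters, cluster 3 with 70.9% at E14.5 and cluster 7 with 89.96% at E16.5. Within cluster 3 alone Ccl2 moved from 725 to 106.7 CPM in 10x and from 86.4 to 363.8 CPM in Smart-seq2. The 10x value of E16.5 rests on only 21 cells (8.79% of the class there). The part of the change of cluster in the Ccl2 levels was not tested. With 1 10x library a day the library and the day cannot be told apart, and no direction by day is given for Ccl2. The same 10x libraries differed in immune cell markers in LP-like cells, with 9 of 11 having a UMI (25.3 CPM summed) at E14.5 and 2 of 11 (5.16 CPM) at E16.5, and the stress genes went from 8589 to 7281 CPM in 10x and from 9287 to 16615 CPM in Smart-seq2. The part of either in the Ccl2 levels was not tested.

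Ccl7 also went opposite ways in LP-like cells (10x ratio 0.759, 0.402 to 1.33; Smart-seq2 ratio 4.76). Cxcl14, Cxcl1, Ccl11 and Ackr3 went the same way on both platforms. Cxcl14 was lower at E16.5 (10x ratio 0.357, 0.192 to 0.611; Smart-seq2 ratio 0.447), although plates overlapped, at 127.75, 29.4 and 105.2 CPM against 6.80, 51.8, 58.3 and 17.8 CPM. Cxcl1 was higher (1.74, 1.13 to 2.59; Smart-seq2 6.86), with plates at 22.7, 71.7 and 39.5 CPM against 489.15, 127.15, 554 and 131.4 CPM that did not overlap. Within cluster 3 alone, however, Cxcl1 went from 60.995 CPM to no UMI in 21 cells in 10x, and from 43.6 to 457.8 CPM in Smart-seq2. The ratios of Cxcl12 lay near 1 (1.04, 0.749 to 1.42; Smart-seq2 0.857). Ccl11 (4.33, 2.42 to 7.63) and Ackr3 (3.54, 1.45 to 8.19) were also higher at E16.5 in 10x, and in Smart-seq2 stood at 6.80 and 24.4 CPM and at 55.4 and 95.1 CPM. No test was made of a day on 1 library. The labels also give a sequence batch for the Smart-seq2 plates, and its part was not tested.

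**Figure D3:**
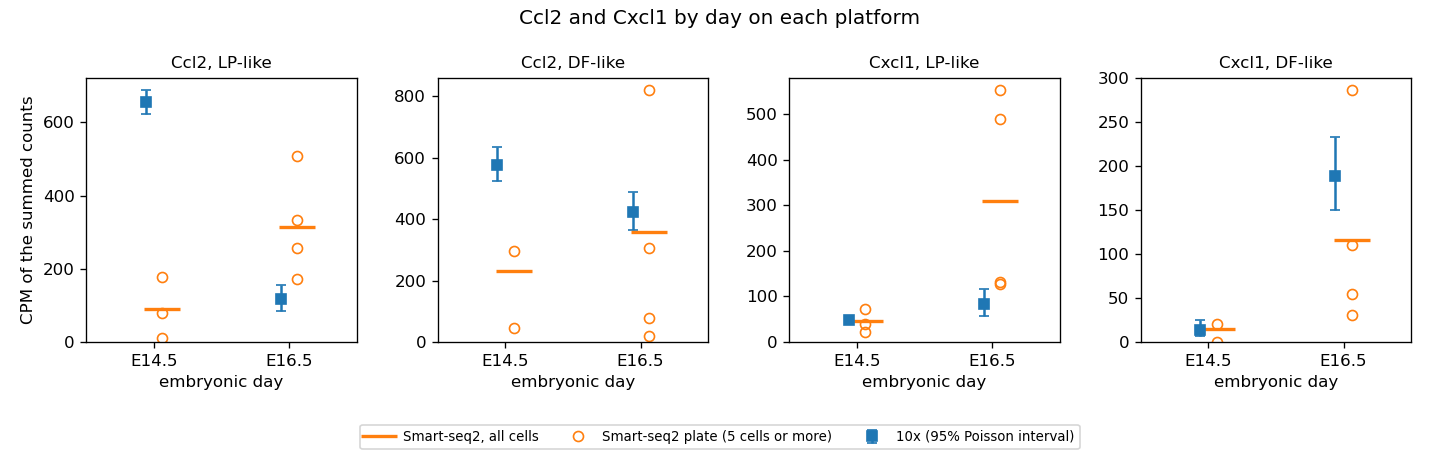
CPM of the summed counts (linear axis) of Ccl2 and Cxcl1 at E14.5 and E16.5 in LP-like and DF-like cells. Squares are 10x with 95% Poisson intervals, bars all Smart-seq2 cells and circles Smart-seq2 plates with 5 cells or more. In LP-like cells Ccl2 goes from 655 to 116.1 CPM in 10x and from 89.6 to 312.99 CPM in Smart-seq2, while Cxcl1 is higher at E16.5 on both platforms in both classes.

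Dermal fibroblasts differed from late progenitors most firmly in Cxcl14. It stood at 374.25, 175.2, 279.3 and 116.4 CPM in DF-like cells of 10x E14.5, 10x E16.5, Smart-seq2 E14.5 and Smart-seq2 E16.5 against 101.2, 36.1, 79.2 and 35.4 CPM in LP-like cells, higher in 4 of 4 pools (log2 fold change 1.82 ± 0.16, adjusted p = 3.70e-05), a 10x ratio of 3.70 (3.11 to 4.41) at E14.5 and 4.85 (2.73 to 9.28) at E16.5. Like LP-like cells, DF-like cells had less of it at E16.5, with a 10x ratio of 0.468 (0.360 to 0.603) and Smart-seq2 plates at 268.7 and 275.3 CPM against 99.2, 110.9, 159.5 and 77.7 CPM. DF-like cells of the 2 days were mostly in different clusters, cluster 10 at E14.5 (99.2% in 10x, 86.8% in Smart-seq2) and clusters 4 and 13 at E16.5 (79.5% and 20.5% in 10x, 67.7% and 27.7% in Smart-seq2). Cxcl12 did not pass (-0.28 ± 0.16, 0.303).

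Ccl11 was lower in DF-like cells, at 6.41, 0, 0 and 3.24 CPM against 13.7, 59.3, 6.80 and 24.4 CPM (-4.08 ± 1.01, 0.0221). The call was lost without 10x E16.5 (-3.74, 0.152), where 0 and 23 UMIs gave a ratio of at most 0.151, and with the listed genes in clustering (-3.18, 0.0557). Without Smart-seq2 E14.5 its log2 fold change was -2.86, and without Smart-seq2 E16.5 -5.14. Ackr3 was higher, at 19.2, 24.7, 83.6 and 208.1 CPM against 7.29, 25.8, 55.4 and 95.1 CPM (0.79 ± 0.23, 0.0410), in 3 of 4 pools, and was lost without 10x E14.5 (0.71, 0.150), without Smart-seq2 E16.5 (0.68, 0.190) and in 10x alone (0.76, 0.425). Ccl2 (0.70 ± 0.31, 0.174), Ccl7 (-1.02 ± 0.56, 0.283), Cxcl1 (-1.01 ± 0.40, 0.127) and Cxcr4 (-3.52 ± 1.19, 0.0792) did not pass.

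Cxcl1 passed as lower in DF-like cells once 10x E16.5 was left out (-1.58, 0.00462), since that library alone had more of it in DF-like cells (188.7 against 82.6 CPM, ratio 2.29, 1.505 to 3.55). In the interaction of class and day, the DF-like against LP-like log2 fold change of Cxcl1 was higher at E16.5 than E14.5 by 1.17 ± 0.37 (adjusted p = 0.0446). It was 1 of 8 genes, where 1.65% of 12960 were called in that direction and 2.01% in the other. In 10x, with 1 library a day, DF-like cells went from below LP-like cells (47.6 CPM at E14.5) to above them. In Smart-seq2 they were below LP-like cells (45.2 and 310 CPM) on both days. In DF-like cells Cxcl1 stood at 14.1 and 188.7 CPM in 10x (ratio 13.4, 7.11 to 27.8) and at 15.3 and 116.1 CPM in Smart-seq2, between the different clusters given above. In the 10x library of E16.5 it stood at 236.3 CPM in cluster 4 and 52.15 CPM in cluster 13. With DESeq2 the interaction did not pass (1.46, 0.774).

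Of the 8 genes 2 were thus higher and 1 lower in DF-like than LP-like cells, where 5.91% of 12960 genes were called higher and 8.29% lower, with a median of -0.65 beside -0.05 over all genes. Of the 13 chemokine ligands tested Cxcl14 was higher and 3 lower, Cxcl9 (-9.13 ± 1.11), Cxcl10 (-1.70 ± 0.47) and Ccl11, and of 7 receptors Ackr3 was higher and Ackr4 (-3.86 ± 0.99) lower. Of the stress genes 8 of 22 were lower and none higher.

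PE-like cells had more Ccl11 and Ccl2 than LP-like cells. Ccl11 stood at 92.7, 807 and 436.4 CPM in PE-like cells of 10x E14.5 (13 cells), 10x E16.5 (30 cells) and Smart-seq2 E16.5 (14 cells), against 13.7, 59.3 and 24.4 CPM in LP-like cells (3.57 ± 0.32, 5.05e-27), and the difference stayed between 3.28 and 3.58 when any 1 pool was left out. Ccl2 stood at 1154, 2202 and 647 CPM against 655, 116.1 and 312.99 CPM (1.63 ± 0.22, 4.23e-12), higher in 3 of 3 pools, but without 10x E16.5 it was 0.60 with an adjusted p of 0.228, and without Smart-seq2 2.22. Since all cells entered the clustering whose PE-like cluster Ccl11 led, these differences describe that cluster.

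Cxcl14 was at 92.7, 0 and 0 CPM in PE-like cells against 101.2, 36.1 and 35.4 CPM (-4.05 ± 0.65, 1.71e-08), a fitted value that is no bound, and without Smart-seq2 it was -0.44 with an adjusted p of 0.751. Cxcl1 did not pass (0.05 ± 0.34, 0.960): it was above LP-like cells in 10x (160 and 403.7 against 47.6 and 82.6 CPM) and below in Smart-seq2 (82.1 against 310 CPM), and without Smart-seq2 it was 1.94 with an adjusted p of 1.60e-05. Ccl7 (0.84 ± 0.42, 0.195) and Cxcl12 (-0.65 ± 0.32, 0.188) did not pass, and the receptors were too low to be tested. Ackr3 had no count in any PE-like cell of any pool.

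Of the 6 tested 2 were higher and 1 lower, where 4.78% of 8843 genes were called higher and 9.76% lower. The called genes were higher in 32.9% of cases, or 43.8% by library totals, with a shift of the median of 0.14. Their median was 0.44 beside -0.04 over all genes, and of the other ligands Cxcl10 was higher too (2.51 ± 0.43). No immune marker had a UMI in PE-like 10x cells (0 of 11). Endothelial markers summed to 126.35 and 110 CPM in PE-like 10x cells against 42.4 and 56.8 CPM in LP-like cells, with Cdh5, Kdr, Tek and Cldn5 at 0 in PE-like cells, and the part of endothelial RNA in the levels was not tested.

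In 10x most LP-like, DF-like and PE-like cells with Ccl7 also had Ccl2. Of 632 LP-like 10x cells 49 had Ccl7, and the 35 that also had Ccl2 were 71.4% of the Ccl7 cells and 19.1% of the Ccl2 cells. In DF-like cells 21 of 35 Ccl7 cells had Ccl2, and in PE-like cells 7 of 7. Cxcl1 was shared less, with 42 of 72 LP-like Cxcl1 cells having Ccl2. Cells rich in UMIs hold more of every gene, so these shares are descriptions.

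BA-like cells had less of the ligands than LP-like cells in 10x, and in Smart-seq2 Cxcl1 was detected in many of them, at a level below that of LP-like cells. In the 10x library of E16.5 Cxcl12 had 0 UMIs in BA-like against 48 in LP-like cells (ratio at most 0.0614, the exact upper limit), Cxcl14 0 against 14 (at most 0.232), and Ccl2 5 against 45 (0.0854, 0.0265 to 0.215). Cxcl1 was lowered least, with 14 UMIs against 32 (0.336, 0.166 to 0.649), and Ccl11 had 7 against 23 (0.234, 0.0848 to 0.563). In 14 BA-like Smart-seq2 cells Cxcl12 stood at 13.9 CPM, Cxcl1 at 66.4 CPM and Ccl2 and Cxcl14 at 0. LP-like Smart-seq2 cells of E16.5 had 251.3 CPM of Cxcl12, 310 CPM of Cxcl1, 312.99 CPM of Ccl2 and 35.4 CPM of Cxcl14. A Cxcl1 count was present in 66.7% of all 15 BA-like Smart-seq2 cells (exact interval 38.4 to 88.2).

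Within muscle only Ackr3 and Ccl2 could be tested. Ackr3 was higher in LM-like than EM-like cells, at 34.8, 3.30 and 13.5 CPM in 10x of E12.5, E14.5 and E16.5 against 21.4, 5.59 and 3.63 CPM, and at 102.2 and 57.6 CPM in Smart-seq2 of E14.5 and E16.5 against 30.9 and 18.5 CPM (1.48 ± 0.40, 0.00746). It was higher in 4 of 5 pools and the call was lost without Smart-seq2 E16.5 (1.31, 0.0567). Ccl2 did not pass (0.54 ± 1.11, 0.765). Of 8083 genes 12.6% were called higher and 13.5% lower. The called genes were higher in 48.4% of cases, or 36.04% by library totals, with a shift of the median of -0.18. In Smart-seq2 65 EM-like cells had Cxcr4, 58 had Ackr3 and 22 had both.

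Freshly sorted Cd36+ libraries of E16.5 had less of all 8 genes than freshly sorted Pdgfra+ libraries, labelled as the same day. If the Thy1- libraries were of E14.5, day and sort could not be told apart for them. In bulk, fewer cells of a type and less RNA per cell cannot be told apart. Bulk CPM are scaled to library totals, while fitted fold changes also carry TMM scaling, which set factors of 2.09 to 2.15 for the Pdgfra+, 1.66 to 1.85 for the Cd36+, 0.772 to 0.878 for the DMEM and 0.396 to 0.917 for the ADM libraries. Cxcl12 stood at 8.41 and 9.41 CPM in Cd36+ and at 272.8, 250.2, 249.6 and 260.3 CPM in Pdgfra+ libraries (log2 fold change -4.58 ± 0.60, adjusted p = 6.61e-05). Cxcl1 was the least lowered, at 65.1 and 75.1 CPM against 366.4, 348.25, 311.7 and 231.7 CPM (-1.89 ± 0.43, 0.00368). Neither gene had overlapping groups.

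The other ligands stood apart as widely. Cxcl14 was at 0.523 and 0.0304 CPM against 150.2, 118.2, 23.7 and 14.503 CPM (-7.83 ± 2.55, 0.0272), where 0.0304 CPM is 1 count. Ccl2 was at 13.3 and 14.8 CPM against 609.5, 749.5, 412.55 and 239.7 CPM (-4.89 ± 1.17, 0.00494), Ccl7 at 4.06 and 4.19 CPM against 151.9, 177.1, 87.05 and 79.1 CPM (-4.63 ± 1.32, 0.0137), and Ccl11 at 6.19 and 6.16 CPM against 16.3, 40.3, 54.6 and 78.6 CPM (-2.66 ± 0.93, 0.0377). Of the receptors, Ackr3 was at 5.55 and 3.25 CPM against 191.04, 150.9, 84.9 and 51.7 CPM (-4.47 ± 0.99, 0.00304) and Cxcr4 at 0.201 and 0.121 CPM against 1.66, 1.501, 1.63 and 1.23 CPM (-2.88 ± 0.89, 0.0203). In none of these did the groups overlap.

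The 8 of 8 lower calls stand beside 18% of 17586 genes called lower and 13.8% called higher, and a median of -4.53 beside -0.05 over all genes (by library totals the latter moved by -0.27 and all 8 were still called). With either of the 2 Cd36+ libraries left out, the calls of Cxcl14, Ccl2, Ccl7, Ccl11 and Cxcr4 were lost (adjusted p between 0.0617 and 0.193), as was that of Ackr3 without the second (0.0565), that of Cxcl1 without the first (0.0504), and that of Ccl11 without either Pdgfra+ library with the mark (0.0609 and 0.0769). The direction held in each. Among other chemokines Cxcl16 (-4.22 ± 0.72), Cxcl13 (-3.89 ± 1.41) and Ccl12 (-5.32 ± 1.33) and the receptor Ccrl2 (-3.07 ± 0.90) were lower, which made 9 of 29 ligands and 3 of 16 receptors. Stress genes summed to 2389 to 3317 CPM in Cd36+ and 7271 to 9289 CPM in Pdgfra+ libraries, and immune markers to 17.1 to 17.2 and 27.9 to 54.2 CPM. Their part was not tested.

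**Figure D4:**
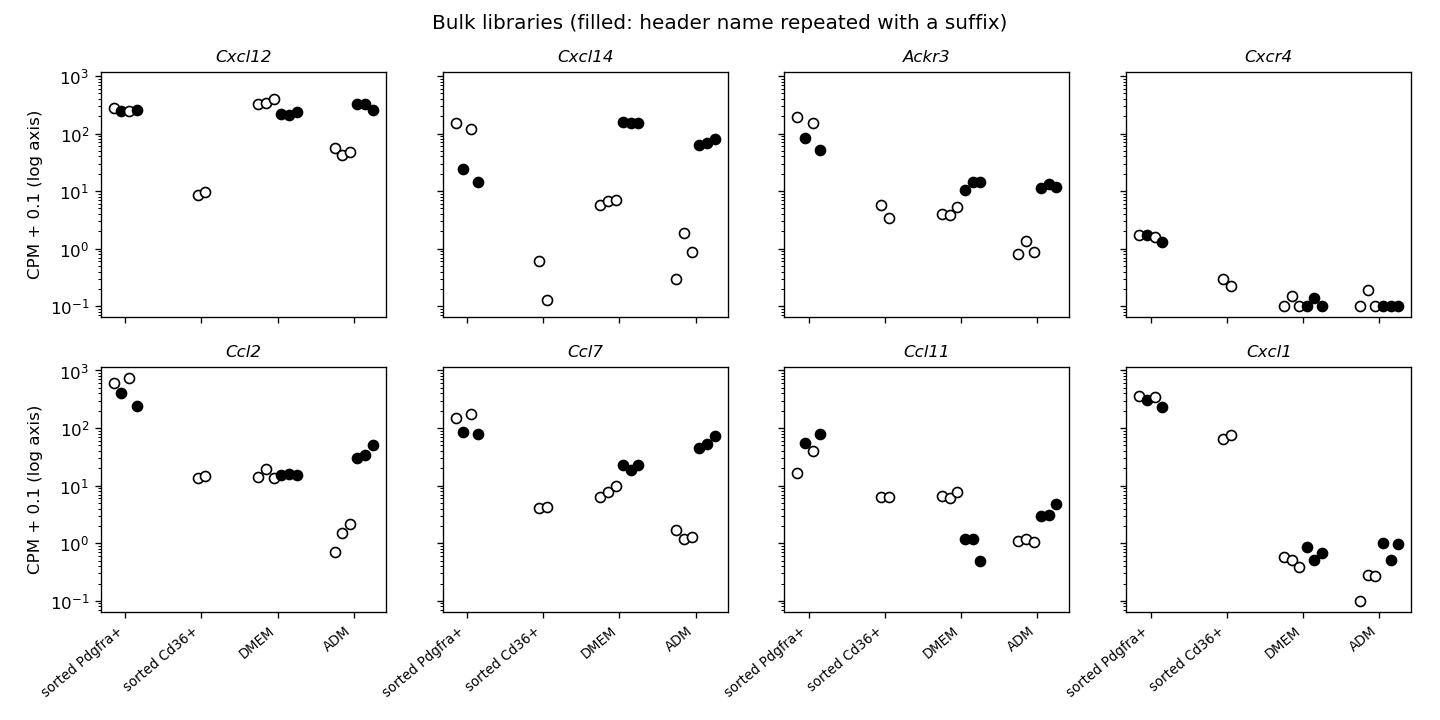
CPM + 0.1 (log axis) of the 8 genes in each of the 18 bulk libraries (points) by group, with libraries with the header mark filled. Cxcl1 lies at 231.7 to 366.4 CPM in sorted Pdgfra+ libraries and below 1 CPM in all 12 cultured ones, while Cxcl12 in DMEM lies around its level in sorted Pdgfra+ libraries.

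Cells cultured in DMEM had almost no Cxcl1, while their Cxcl12 levels overlapped those of sorted cells. Cxcl1 stood at 366.4, 348.25, 311.7 and 231.7 CPM in sorted Pdgfra+ libraries and at 0.283 to 0.770 CPM (median 0.444) in the 6 DMEM libraries, without overlap (log2 fold change -8.00 ± 0.37, adjusted p = 3.82e-10). Cxcl12 stood at 206.7 to 390.2 CPM (median 281.7) in DMEM and 249.6 to 272.8 CPM in sorted libraries, which overlap. Its fitted difference was 1.495 ± 0.36 (0.00249) with TMM and 0.14 (0.810) by library totals, so no direction is given for it: between these groups TMM and totals placed the median of all genes at -0.31 and -1.65.

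Both scalings agreed in direction on the other genes that passed. Ccl2 fell from 239.7 to 749.5 CPM in sorted libraries to 13.6 to 19.7 CPM in DMEM (-3.68 ± 0.69, 0.000301). Ackr3 fell from 51.7 to 191.04 CPM to 3.70 to 14.4 CPM (-2.46 ± 0.58, 0.00187), Ccl11 from 16.3 to 78.6 CPM to 0.399 to 7.56 CPM (-2.27 ± 0.61, 0.00476) and Cxcr4 from 1.23 to 1.66 CPM to at most 0.0513 CPM, 1 count, in any DMEM library (-5.07 ± 0.74, 3.05e-05). For each of these the groups did not overlap.

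Ccl7, at 79.1 to 177.1 CPM in sorted and 6.28 to 22.8 CPM in DMEM libraries, did not overlap either but missed the threshold (-1.76 ± 0.75, 0.0559), and passed by library totals (-3.08, 0.00559), with DESeq2 (-1.79, 0.033), in a fit of these groups alone (-1.71, 0.00210) and with the mark as a term (-1.83, 6.36e-11). Cxcl14 overlapped, at 5.62 to 160 CPM in DMEM and 14.503 to 150.2 CPM in sorted libraries (1.37 ± 1.27, 0.373).

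Of the 8, 5 were thus lower, and Cxcl12 was called higher with TMM scaling alone, where 20.2% of genes were called higher and 33.6% lower. The called genes were higher in 37.5% of cases, or 5.75% by library totals. The median of the 8 was -2.37 beside -0.31 over all genes. Of 29 chemokine ligands 18 were lower and 2, Cxcl12 among them, higher with TMM, and of 16 receptors 12 were lower and 1 (Cxcr2) higher. Cxcl2, another neutrophil attractant, was listed at 0 in all 6 DMEM libraries, and Pf4, a platelet and macrophage chemokine, was lower (-7.05 ± 0.71). Of 22 stress genes 21 were lower in DMEM and of 22 NF-kB genes 15. Stress genes summed to 303.01 to 644 CPM in DMEM against 7271 to 9289 CPM in sorted Pdgfra+ libraries, and immune markers to 1.56 to 4.34 against 27.9 to 54.2 CPM. Culture and day cannot be told apart, since the cultured cells came from E14.5 and the sorted ones, by the labels, from E16.5, and the part of handling or of immune cells was not tested.

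None of the 8 genes passed the edgeR test between the 2 culture media over all 6 libraries each, none had an unadjusted p under 0.05 (the lowest was 0.0779, of Cxcl12), and none of the 7 with an adjusted p passed with DESeq2, where by edgeR 5.21% of genes were called higher in ADM and 3.94% lower. The called genes were higher in ADM in 56.96% of cases, or 21.1% by library totals, with a shift of the median of -0.36. Their median was -0.20 beside -0.02 over all genes. The spread within ADM was wide and followed the header mark. Cxcl12 stood at 55.4, 42.2 and 47.4 CPM in ADM libraries without the mark and at 328.6, 323.03 and 257.75 CPM in those with it, and at 324.5, 337.6 and 390.2 CPM and 214.7, 206.7 and 238.9 CPM in the DMEM libraries without and with it. Across all libraries Cxcl12 did not pass (-0.58 ± 0.31, 0.243).

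Cxcl14 stood at 0.198, 1.78 and 0.765 CPM without the mark and 62.7, 68.9 and 78.7 CPM with it in ADM, and at 5.62, 6.57 and 7.05 CPM and 160.4, 152.03 and 149.6 CPM in DMEM (-1.21 ± 1.102, 0.517). Libraries with the mark were thus higher in Cxcl14 within each medium. The mark is not known to name the same cells in both media, so its sides are not matched between them. Ccl2 differed by the mark in ADM, at 0.595, 1.43 and 2.04 CPM against 30.1, 33.9 and 50.1 CPM, and not in DMEM, at 13.8, 19.7 and 13.6 CPM against 15.2, 15.5 and 15.4 CPM (medium: 0.31 ± 0.60, 0.788). Ccl7 differed by the mark in both media, at 1.07 to 1.59 CPM without and 45.5 to 72.8 CPM with it in ADM and at 6.28 to 9.85 CPM and 18.6 to 22.8 CPM in DMEM.

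With a mean for each group and side of the mark, averaged with equal weight (added after seeing the data), ADM was lower on average for Cxcl12 (-0.72, 5.74e-07), Cxcl14 (-1.48, 4.79e-05), Ackr3 (-0.71, 0.0143) and Ccl2 (-0.63, 0.0165), the last against its direction without the term. For Ccl2 that average joins opposite differences: in CPM, ADM libraries without the mark lay below all DMEM libraries and those with it above all of them. For Cxcl12, ADM libraries without the mark lay below all DMEM libraries, and those with it lay within the DMEM range.

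Genes that varied most like each of the 8 were sought as a description, by Pearson's r of log2(CPM + 1) over 32 class sums (14396 genes) and over the 18 bulk libraries (17477 genes). The sums share platforms and depth, and r has no p. Over class sums Cxcl12 lay closest to Col1a1 (0.871), a collagen of connective tissue, Cxcl14 to Irf5 (0.834) with the dermal transcription factor Twist2 among its first 3 (0.826), and Cxcr4 to Eya2 (0.737) with Pax3 among its first 3 (0.696), both known from muscle precursors. Ackr3 lay closest to Golm1 (0.779), Ccl2 to Arpc1b (0.884), Ccl11 to Tinagl1 (0.894) and Cxcl1 to the interleukin 1 receptor Il1r1 (0.911). In bulk, Cxcl12 lay closest to Efemp2 (0.971), Cxcl14 to Lrrc15 (0.973), Cxcr4 to Adamts8 (0.995), Ackr3 to Elmo1 (0.991), Ccl2 to Bcl10 (0.984), Ccl7 to Dpt (0.980), Ccl11 to Col6a6 (0.965) and Cxcl1 to Csrnp1 (0.995), with the immediate-early gene Fosb (0.995) among its first 3.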

How the data were processed

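Single cells were profiled with 10x 3' v2 and Smart-seq2, and bulk RNA with Smart-seq2. The deposited 10x table holds UMI counts made by the authors with Cell Ranger. Values of Smart-seq2 cells were deposited in the unit of expected counts, made by the authors with kallisto 0.44.0 and tximport (28.404% of values not whole), and were rounded once added up. The deposited bulk table holds whole counts per gene. Its counter is not given in the sources used here, STAR and the build mm10 being among the submitters' processing notes.

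Cells without a YFP count or with over 8% mitochondrial counts, Smart-seq2 cells under 4000 genes and 10x cells over 15000 UMIs were left out, which kept 3852 of 3916 cells. Scrublet in scanpy 1.11.5 called 8, 8 and 6 doublets in the 10x libraries by day, kept here and removed in an alternative, and 3 barcodes occurred in more than 1 10x library. Cells were clustered with Seurat 5.3.0 (2000 genes, 30 components, resolution 0.8, 18 clusters) without 115 listed genes, the 8 genes of the report among them. A cluster took a class name from markers at a score of at least 0.25 and a margin of 0.2 with at least 3 markers in 5% of its cells. This score limit replaced a first value of 0.8, and the EP-like cluster scored 0.268. EM-like cluster 5 (0.589) and LP-like cluster 11 (0.692) were also named only under the lower limit. Cluster 5 held 97.6% of the EM-like cells of E12.5 in 10x and 91.8% in Smart-seq2. A cluster of 22 cells led by cartilage genes met the limits as EP-like (0.618). It was left unnamed by a rule added after its leading genes were seen.

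For each class and each pool of 1 platform and 1 day, counts were added up (at least 20 cells, 10 for PE-like) and tested with edgeR 4.0.16 (quasi-likelihood, TMM, filterByExpr, Benjamini-Hochberg over all genes, adjusted p under 0.05) with the pool as a block (the platform for LP-like against EP-like), DESeq2 1.42.0 being an alternative. Bulk libraries were fitted together, and calls rest on that fit. Ratios of 10x UMIs carry conditional exact 95% intervals, and shares of cells exact Clopper-Pearson 95% intervals. The limit given for a share of 0 is instead 3 over the number of cells. The tests were checked on simulated data. Members and gene lists were chosen with earlier results of these data known. The named genes were the 8 in every comparison and, from the lists, up to 5 genes a comparison with the largest change past the threshold, chemokines first. Comparisons by Thy1 sign were planned and could not be run, as the bulk header lost the sign. The groups used instead were set after the files were seen. Python 3.11.15 and R 4.3.3 were used.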

Additional observations from a re-analysis of the deposited data

Results flagged for a closer look

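Among 24 groups of bulk values tested for a sample far from the others, 2 were met, where chance gives about 1 in 20. Cxcr4 in 1 ADM library stood at 0.0892 CPM, a single count, beside 0 in the other 5. Ccl2 in 1 DMEM library stood at 19.7 CPM, beside 13.6 to 15.5 CPM in the other 5. The difference of Cxcl1 between DF-like and LP-like cells changed with the day, by 1.17 on the log2 scale by the interaction term (adjusted p = 0.0446, edgeR), and did not pass with DESeq2 (0.774).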

How the results depend on the processing

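The percent of genes tested that were called moved as follows where the count of calls changed by over 1.5 times, and over the sums, pools or libraries left out. With DESeq2 it was 4.72% for EP-like against EM-like (8.82% in the report), 10.5% for LP-like against EP-like (6.65%), 0.741% for the interaction (3.67%) and 18.5% for ADM against DMEM (9.16%). In 10x pools alone it was 39.9% of fewer genes tested for LP-like against EM-like (36.6%), 13.55% for DF-like against LP-like (14.2%), 20.9% for LM-like against EM-like (26.1%) and 3.70% for LP-like against EP-like. Leaving out 1 sum or pool gave 25.5 to 44.3% for LP-like against EM-like, 7.38 to 19.1% for DF-like against LP-like, 17.3 to 24.95% for LM-like against EM-like, 0 to 14.4% for LP-like against EP-like and 12.4 to 13.2% for PE-like against LP-like (14.54%). No gene was called by edgeR for LP-like against EP-like without the Smart-seq2 EP-like sum, where 682 of 11965 genes had an unadjusted p under 0.05. For ADM against DMEM it was 5.70% in a separate fit, 4.94% by library totals, 35.3% with the header mark as a term and 0.499% with the replicate block, and 3.08 to 15.9% without 1 library. For sorted Cd36+ against Pdgfra+ (31.8%) it was 53.1% with the header mark and 11.2 to 27.9% without 1 library, and for DMEM against sorted Pdgfra+ (53.9%) 47.3 to 51.6%. The cause was not tested. Alternatives on bulk libraries and the leave-one-out of PE-like sums were chosen after seeing the data.

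Values that changed sign, none of which passed in the report, were Cxcl12 in DF-like against LP-like with the listed genes in clustering (0.059), Ccl7 in the same comparison in 10x alone (0.575), Ccl2 in LM-like against EM-like without 1 pool (-0.66 to 0.63), Cxcl1 in PE-like against LP-like without 1 pool (-0.80 to 1.94) and Ackr3 in the interaction with DESeq2 (-0.08). In ADM against DMEM they were Cxcl1 with DESeq2 (0.091) and without 1 library (-0.38 to 0.20), Ccl2 with the header mark (-0.63) and without 1 library (-0.18 to 0.56), Cxcr4 with the header mark (-0.093) and without 1 library (-2.15 to 1.47), and Ccl7 (-0.14) and Ccl11 (0.071) with the header mark. Thinned to 1000 UMIs, the share of LP-like 10x cells with a UMI was 8.51% for Cxcl12, 7.04% for Cxcl14, 0.327% for Cxcr4, 1.31% for Ackr3, 16.2% for Ccl2, 2.78% for Ccl7, 2.62% for Ccl11 and 4.58% for Cxcl1.

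Replicate numbers of bulk libraries did not pair them: deviations of libraries with the same number correlated between -0.048 and 0.021 in culture and between -0.024 and 0.177 in sorted libraries. Not run were, for EP-like against EM-like, resolution 0.4 (the EP-like cluster was unnamed there), 10x pools only and both leave-one-outs, for LP-like against EP-like resolution 0.4, and the comparisons by Thy1 sign. At 1000 UMIs a cell, 10x limits Cxcr4 and Ackr3 to few cells.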
